A study of Caenorhabditis elegans with 22 samples.

Results

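The far genes of Caenorhabditis elegans encode the fatty acid and retinol binding (FAR) proteins. The family was taken by gene symbol, from far-1 to far-8, and its members were chosen by name and not by any measured value. Of the 8 listed genes, 6 were in the table of 19598 genes, namely far-3, far-4, far-5, far-6, far-7 and far-8, and all 6 passed the filter on low counts that left 16431 genes. The genes far-1 and far-2 are not analysed here, so every statement on the family below is on 6 genes.

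FAR proteins are small proteins built mostly of helices, found in nematodes, that hold fatty acids and retinol in a pocket of the fold. Fatty acids dissolve poorly in water, and carriers of this kind can hold them in solution. Parasitic nematodes release FAR proteins into the tissues of their hosts, where they can bind host lipids. In C. elegans FAR-7 is the member whose crystal structure was solved, and the tasks of the single members in the animal are less well known than their binding. Serotonin is a transmitter that acts on feeding, egg laying and fat stores of the worm, and SER-5 and SER-7 are G protein-coupled receptors for it. Loxapine is a tricyclic antipsychotic drug that binds serotonin and dopamine receptors in mammals.

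RNA of whole adults was sequenced in 22 libraries of 7 groups. The serotonin groups, at 5 mM, were 3 libraries of wild-type N2 and 3 of ser-7(vq2). The loxapine groups, at 50 µM, were 3 libraries of N2 and 2 of ser-5(vq1). The groups with DMSO were 3 libraries of ser-7(vq2), 3 of ser-5(vq1) and 5 of N2. All 7 groups were grown in liquid on killed OP50 bacteria and sterilised as larvae with 0.12 mM FUDR, which blocks DNA synthesis, and all were harvested 72 h after the compound was added on day 1 of adulthood. Each mutant strain was 1 allele. Serotonin was dissolved in water and loxapine in DMSO, which was kept under 0.3%. The labels do not say whether the serotonin cultures received DMSO too, and if they did not, an effect of the vehicle cannot be told apart from one of serotonin. Nothing in the labels says that the replicates came from different cultures, and p-values here cover only the spread between these samples, which may be technical.

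Total counts lay between 25652111 and 39765014 per library. In the ser-7 mutants the ser-7 transcript had 0 counts over the 3 serotonin libraries, which allows up to 0.0301 CPM (the count scaled to the library total) by counting error alone, and 2 counts over the 3 DMSO libraries, against 1.95 to 2.85 CPM in N2 with DMSO. The ser-5 transcript lay at 0.186 to 0.662 CPM in ser-5 with loxapine and at 0.202 to 0.441 CPM in ser-5 with DMSO, against 1.26 to 2.29 CPM in N2 with DMSO. Within N2 with DMSO, replicates 3 and 6 and replicates 2 and 5 were closer to each other than any other pair of one group (chi-square per degree of freedom 3.86 and 4.94, against 11.9 or more), though both differed by more than sampling noise. The library numbers in the labels form 3 runs (1 and 3 to 8, 13 to 20, and 25 to 31), here called library series 1, 2 and 3. Marker genes of intestine, hypodermis, body wall muscle, pharynx, neurons and germline had counts in all libraries. In whole animals, fewer cells of a type and less RNA per cell cannot be told apart.

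The 6 genes lie on 4 chromosomes (WBcel235 assembly, Ensembl release 115), and 3 of them form a cluster. In the cluster far-5 is at V:12995569-12996836 on the plus strand, far-3 at V:12996787-12997522 on the minus strand and far-4 at V:12998427-12999659 on the minus strand. The ends of far-5 and far-3 face each other and their last exons share 50 bases, and 904 bases separate far-3 from far-4. Whether the counting used the strand is not given in the sources used here, so reads from the shared bases of far-3 and far-5 may be split between them in an unknown way. The others stand apart: far-6 is at IV:13328359-13329314, far-7 at II:319789-321110 with 4 annotated transcripts, and far-8 at III:842930-843802, all on the plus strand. Reads that match more than 1 far gene, if there are any, could also have been assigned in a way that is not given. The sequences of the genes were not compared.

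**Figure D1:**
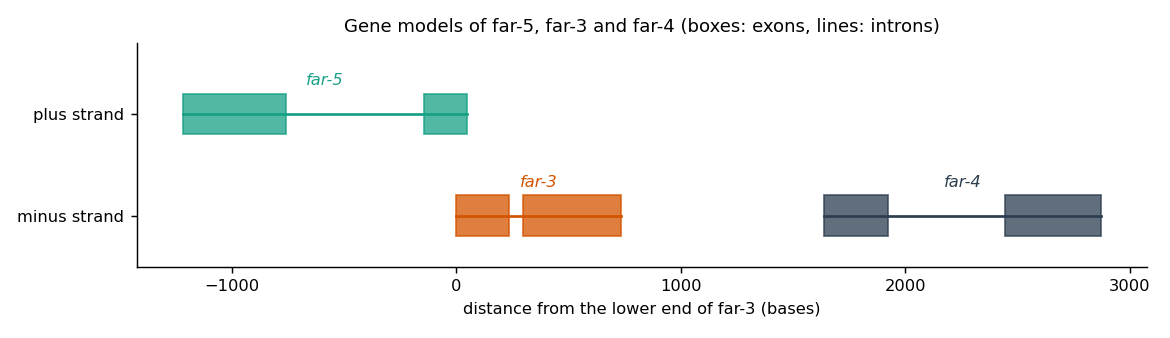
Gene models of far-5, far-3 and far-4 on the plus and minus strands. The horizontal axis is the distance in bases from the lower end of far-3, boxes are exons and lines introns, and the last exons of far-5 and far-3 overlap by 50 bases at the left end of far-3.

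The 6 genes covered a wide range of levels. Per kilobase of exon in N2 with DMSO, far-6 had 490 CPM per kb and ranked 261st of the 16431 genes tested, above 98.4% of them. Next came far-3 with 250.5 CPM per kb, above 96.7% of genes, and far-8 with 122 CPM per kb, above 92.7%. The other members were near the middle or low: far-5 had 17.2, far-7 had 12.9 and far-4 had 2.08 CPM per kb, above 60.2%, 54.9% and 30.2% of genes. The gene far-4, with 12 to 213 counts per library, was the only member under 100 counts in any library. The 6 genes together made up 0.0721% ± 0.00926 of all counts in N2 with DMSO (SD, n = 5), of which far-6 alone was 61.3%.

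In N2 animals given serotonin 5 of the 6 far genes fell relative to N2 with DMSO at an adjusted p (edgeR's quasi-likelihood test, Benjamini-Hochberg) under 0.05. Over all genes tested, 16.8% were called lower in this comparison. Every one of the 6 had its lowest group mean of the 7 groups in N2 with serotonin. The share of all genes with their lowest mean in this group was not counted. The median log2 fold change of the 6 genes was -0.92, against -0.12 over all genes tested. The summed level of the family was 324 ± 48.2 CPM (SD, n = 3) in N2 with serotonin and 731 ± 105 CPM (SD, n = 5) in N2 with DMSO, or 0.0310% of all counts with serotonin and 0.0721% with DMSO. Marker genes of several tissues moved in the same comparison, and these are given below the single genes.

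The most abundant member, far-6, also had the lowest fitted fold change of the 6. Its level was 130.1, 177 and 202 CPM in N2 with serotonin, against 501, 420, 418, 477 and 410.2 CPM in N2 with DMSO. All 3 serotonin libraries lay under all 5 DMSO libraries, with a wide gap between the groups. The log2 fold change was -1.39 ± 0.16 (SE), a level 0.381 times that of the control, with an adjusted p of 1.12e-05 by edgeR. Only 2.57% of genes tested had a lower fold change. Within library series 1, 2 and 3 the differences in log2 CPM were -1.68, -1.46 and -1.04, all below 0.

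The gene far-8 was called lower as well. It had 41.3, 52.4 and 53.2 CPM in N2 with serotonin, against 98.3, 91.0, 101, 102.8 and 85.6 CPM in N2 with DMSO. The groups did not overlap, and the fitted serotonin level was 0.511 times the control level. On the log2 scale this was -0.97 ± 0.12 (SE, adjusted p 2.25e-05 by edgeR), and the differences within the 3 series were -1.29, -0.94 and -0.73.

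The third member whose groups did not overlap was far-5, of the chromosome V cluster. Its level was 7.76, 7.47 and 6.98 CPM in N2 with serotonin, a narrow range, against 11.4, 11.5, 13.1, 11.7 and 8.73 CPM in N2 with DMSO. Its log2 fold change was -0.61 ± 0.15 (SE, adjusted p 0.00358 by edgeR), the smallest among the 5 called members, and the differences within the series were -0.75, -0.63 and -0.52. Among all genes tested, 15.5% had serotonin libraries wholly under the DMSO libraries in N2. The calls of far-5, far-6 and far-8 held under all 31 alternative settings and left-out libraries that were run.

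The neighbours far-3 and far-4 overlapped between the groups. The gene far-3 had 101, 133 and 43.0 CPM in N2 with serotonin, against 216, 113, 175, 235.2 and 103.9 CPM in N2 with DMSO, 1 serotonin library lying inside the DMSO range. Its log2 fold change of -0.87 ± 0.39 (SE) missed the threshold by edgeR (adjusted p 0.0900). It passed with DESeq2 (0.0346), with the replicate block (0.0360), with the library series block (0.00446), without N2 serotonin replicate 2 (0.0453) and without N2 loxapine replicate 3 (0.0484). Within the 3 series its differences were -0.79, -0.76 and -1.34.

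The gene far-4 had 0.563, 1.14 and 0.432 CPM in N2 with serotonin, against 1.73, 1.18, 1.08, 2.31 and 1.10 CPM in N2 with DMSO. The second serotonin library lay among the lower DMSO libraries. It was called lower with a log2 fold change of -1.05 ± 0.39 (SE, adjusted p 0.0396 by edgeR). That call was lost when N2 serotonin replicate 1 (0.122) or 3 (0.202), N2 DMSO replicate 2 (0.0736) or 5 (0.110), or ser-5 loxapine replicate 1 or 2 (0.0524 each) was left out. It was also lost with the compared groups only (0.0506), with the near-duplicate N2 DMSO libraries added up (0.0847) and with N2 DMSO replicates 2 and 3 (0.125) or 4 to 6 (0.0765) as the only controls. Its adjusted p lay between 0.00417 and 0.202 over the 31 alternatives, and its differences within the series were -0.88, -0.78 and -1.29.

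The last member, far-7, had 4.81, 6.89 and 3.99 CPM in N2 with serotonin, against 8.46, 6.88, 9.54, 11.1 and 6.83 CPM in N2 with DMSO. The second serotonin library touched the lowest DMSO libraries. Its log2 fold change was -0.71 ± 0.23 (SE, adjusted p 0.0216 by edgeR). The call was lost with N2 DMSO replicates 2 and 3 as the only controls (-0.49, 0.179) and without N2 serotonin replicate 1 (0.0611) or 3 (0.142) or N2 DMSO replicate 5 (0.0596). Its differences within the series were -0.98, -0.49 and -0.77.

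**Figure D2:**
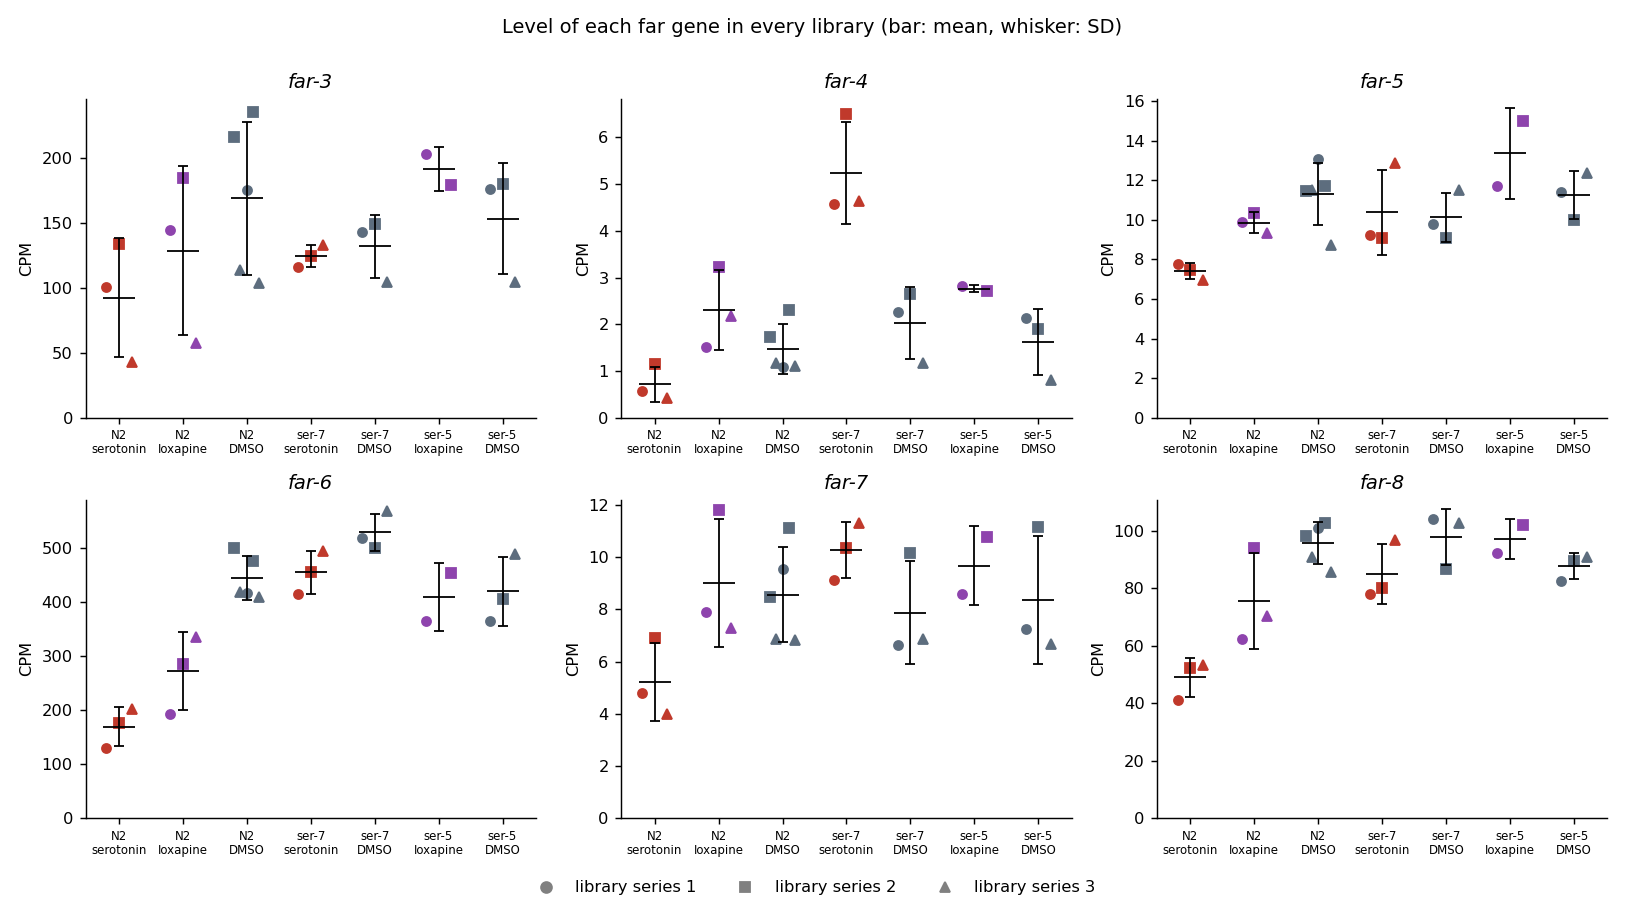
Level of each far gene in every library, in CPM on a linear axis from 0, by group. Points are libraries with the marker shape giving the library series, the horizontal bar is the group mean and the whisker the SD. The N2 serotonin libraries have the lowest mean in all 6 panels, and far-4 is highest in the 3 ser-7 libraries with serotonin.

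The cell type markers that moved with serotonin in N2 were as follows, where 16.8% of all genes tested were called lower. Of 9 body wall muscle markers 7 were called lower and none higher, and their summed level was 1792 to 2247 CPM with serotonin and 3507 to 4179 CPM with DMSO. Of 9 germline and oocyte markers 8 were called higher and none lower, where 20.4% of all genes tested were called higher, with summed levels of 5134 to 8136 CPM with serotonin and 3456 to 4163 CPM with DMSO. Lower calls were also made for 4 of 5 pharynx markers (80.2 to 101 CPM with serotonin, 167 to 245 CPM with DMSO) and 5 of 8 neuron markers (521 to 646 CPM with serotonin, 651 to 809.9 CPM with DMSO), with no higher call in either list. The intestine list had 1 higher and 3 lower calls of 8 (582 to 679 CPM with serotonin, 735 to 965 CPM with DMSO), and the hypodermis list 2 of each of 8 (495 to 659 CPM with serotonin, 559 to 725 CPM with DMSO). No marker in any of these lists was at 0 in any library, and their part in the far gene result was not tested.

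With loxapine in N2, far-6 was the only member past the threshold, and it was lower. So 1 of 6 members was called lower, as were 8.38% of all genes tested. The median log2 fold change of the 6 genes was -0.27, against -0.07 over all genes tested. The summed family level was 498 ± 86.2 CPM (SD, n = 3) with loxapine and 731 ± 105 CPM (SD, n = 5) with DMSO. The DMSO libraries of N2 are the same ones as in the serotonin comparison.

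The level of far-6 was 194, 286 and 337 CPM in N2 with loxapine, against 410.2 to 501 CPM (median 420) in N2 with DMSO. All loxapine libraries lay under all DMSO libraries, as was so for 12.6% of genes tested. The log2 fold change was -0.71 ± 0.16 (SE, adjusted p 0.00658 by edgeR), and the differences within the series were -1.11, -0.77 and -0.30. The call was lost with N2 DMSO replicates 2 and 3 as the only controls (0.0587).

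The gene far-8 had 62.3, 94.2 and 70.4 CPM in N2 with loxapine, against 85.6 to 102.8 CPM (median 98.3) with DMSO, and its second loxapine library lay inside the DMSO range. It missed the threshold (log2 fold change -0.34 ± 0.12 SE, adjusted p 0.0531 by edgeR). It passed without N2 loxapine replicate 2 (0.0310), without N2 serotonin replicate 1 (0.0309), without N2 DMSO replicate 6 (0.0441), with the library series block (0.0253) and with low counts kept (0.0368).

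The other 4 members were not called with loxapine in N2, and they did not share a direction. The gene far-3 had 144, 184 and 57.2 CPM (log2 fold change -0.39 ± 0.38, SE), and far-5 had 9.87, 10.4 and 9.32 CPM (-0.20 ± 0.15). The gene far-7 had 7.91, 11.8 and 7.27 CPM (0.07 ± 0.23). The gene far-4 had 1.52, 3.22 and 2.17 CPM with loxapine, against 1.08 to 2.31 CPM (median 1.18) with DMSO, a log2 fold change of 0.63 ± 0.35 (adjusted p 0.215 by edgeR). With the library series block far-4 passed as higher (0.0426).

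With loxapine in N2, 7 of 9 body wall muscle, 2 of 5 pharynx, 2 of 8 neuron and 1 of 8 hypodermis markers were called lower. Of the germline and oocyte markers 6 of 9 were called higher by the same threshold. Over all genes tested 10.5% were called higher and 8.38% lower. The summed body wall muscle level was 1839 to 2528 CPM with loxapine and 3507 to 4179 CPM with DMSO, and that of the germline list 4615 to 5377 CPM with loxapine and 3456 to 4163 CPM with DMSO. No intestine marker was called. The part of these in the far-6 result was not tested.

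Set directly against loxapine in N2, serotonin gave lower fitted levels of all 6 far genes. By edgeR 2 of 6 were called lower, where 0.949% of all genes tested were. DESeq2 called 3 lower, where it called 310 of the 19598 genes of the table lower. The log2 difference, serotonin over loxapine, was -0.63 ± 0.13 for far-8 (SE, adjusted p 0.0240) and -1.68 ± 0.42 for far-4 (0.0498). The values for far-6 were -0.68 ± 0.17 (0.0509), for far-7 -0.78 ± 0.26 (0.110), for far-5 -0.41 ± 0.17 (0.184) and for far-3 -0.48 ± 0.42 (0.549). The serotonin and loxapine libraries did not overlap for far-4, far-5, far-7 and far-8, and 7.8% of all genes tested had serotonin libraries wholly under loxapine libraries. The doses were 5 mM and 50 µM and the stock solvents were water and DMSO, so the difference is one between these treatments and not between the compounds at a matched dose. Of the cell type markers 1 of 5 pharynx markers was called lower, tni-4 (-0.86), which encodes a troponin I of the pharynx, and none of the other 5 lists was called. The pharynx markers had a median log2 difference of -0.60 and summed to 80.2 to 101 CPM with serotonin and 120.3 to 152 CPM with loxapine. Their part in the far gene result was not tested.

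The calls of this direct comparison depended on the setting. With the replicate block 4 genes were called lower, far-6 (0.00445) and far-7 (0.0107) joining far-4 and far-8. The call of far-4 was lost in 22 of 31 alternatives, its adjusted p reaching 0.552 with the compared groups only. It held with DESeq2, with low counts kept, with both blocks, and without N2 serotonin replicate 2, N2 loxapine replicate 1, N2 DMSO replicate 5, ser-7 DMSO replicate 3 or ser-5 DMSO replicate 3, but not without any other library. The call of far-8 was lost in 5, namely with RLE size factors (0.0530), with the compared groups only (0.552), with N2 DMSO replicates 2 and 3 only (0.0589) and without N2 loxapine replicate 2 (0.216) or 3 (0.0681). The gene far-6 passed without N2 loxapine replicate 1 (0.00476) or N2 serotonin replicate 3 (0.0499). With RLE size factors in place of TMM, 84 genes of the whole table were called higher and 81 lower, against 90 and 156 with TMM, and no far gene was called.

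**Figure D3:**
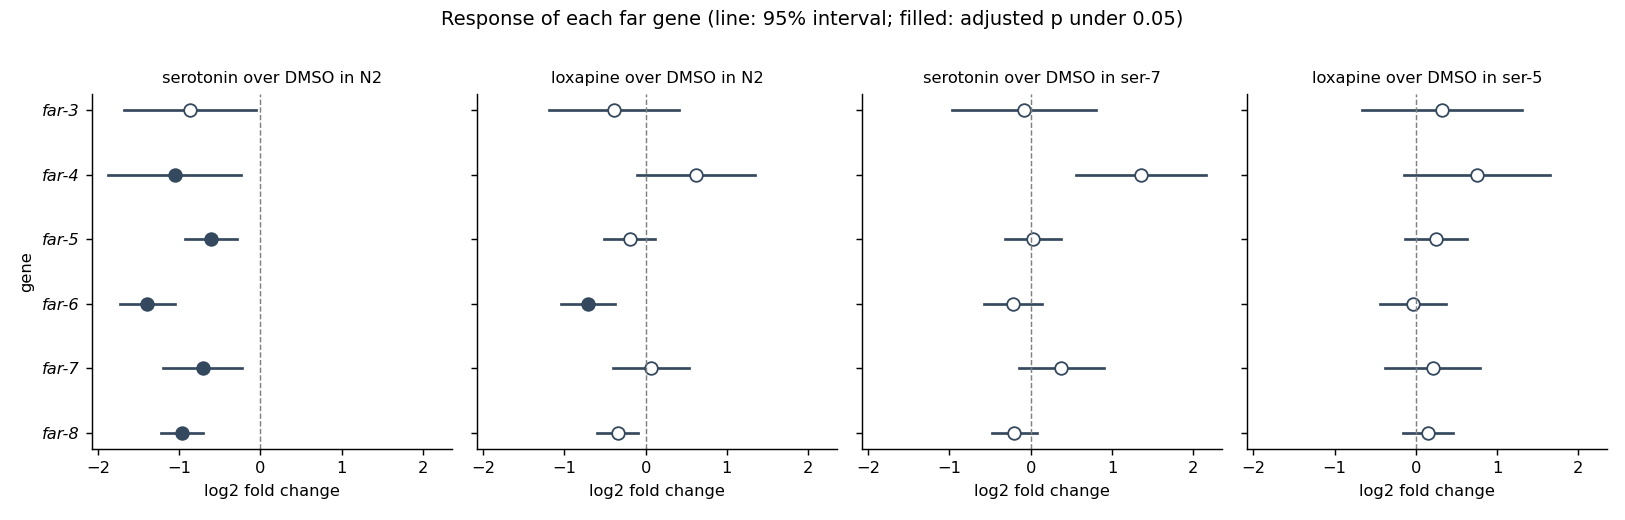
Log2 fold change of each far gene for the 4 comparisons of a compound over DMSO in the same strain. Points are edgeR estimates, lines 95% intervals, and filled points have an adjusted p under 0.05. 5 filled points stand left of 0 for serotonin in N2, 1 for loxapine in N2 and none in the ser-7 or ser-5 mutants.

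In the ser-7 mutant no far gene passed the threshold with serotonin, by edgeR or by DESeq2, and no gene of the whole table did either (0%). The lowest unadjusted p of the 6 by edgeR was that of far-4, given below. The median log2 fold change of the 6 genes was -0.03, against -0.01 over all genes tested. The family summed to 691 ± 60.7 CPM with serotonin and 780 ± 18.5 CPM with DMSO in ser-7 (SD, n = 3 each). No marker of the 6 cell type lists was called in this comparison.

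The level of far-6 was 416, 457 and 495 CPM in ser-7 with serotonin, against 519.8, 502 and 569 CPM in ser-7 with DMSO. The groups did not overlap, yet the gap between them was small, and 4.98% of all genes tested had serotonin libraries wholly under the DMSO ones. The log2 fold change was -0.22 ± 0.17 (SE), with a 95% interval of -0.58 to 0.14, which does not hold the -1.39 seen in N2. The gene far-8 had 78.1, 80.1 and 96.9 CPM with serotonin and 104, 86.7 and 102.8 CPM with DMSO, which overlapped, a log2 fold change of -0.20 ± 0.13 (interval -0.48 to 0.08).

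The gene far-4 stood apart from the others in ser-7. It had 4.57, 6.505 and 4.63 CPM with serotonin, its highest group of the 7, against 2.27, 2.65 and 1.17 CPM with DMSO. The groups did not overlap, as was so in this direction for 5.31% of all genes tested. The log2 fold change was 1.36 ± 0.39 (SE, interval 0.55 to 2.16, unadjusted p 0.00207), higher in the serotonin library in 3 of 3 series (0.99, 1.27 and 1.93), and 99.8% of genes tested had a lower fold change. The adjusted p was 0.943 by edgeR, so the difference was not called. With the library series block it was called (0.0454).

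The remaining members overlapped between serotonin and DMSO in ser-7. The gene far-3 had 116, 124 and 133 CPM with serotonin and 142, 149 and 104 CPM with DMSO (log2 fold change -0.09 ± 0.42, SE). The gene far-5 had 9.22, 9.07 and 12.8 CPM with serotonin and 9.80, 9.09 and 11.5 CPM with DMSO (0.03 ± 0.17). The gene far-7 had 9.14, 10.4 and 11.3 CPM with serotonin and 6.64, 10.2 and 6.85 CPM with DMSO (0.38 ± 0.25). The intervals of far-3 and far-7 reach from -0.97 to 0.80 and from -0.15 to 0.91, so changes of moderate size could not be detected at this spread.

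The difference between the strains in the serotonin response was then tested itself, as the response in ser-7 minus that in N2. It was above 0 for all 6 genes and passed the threshold for 4 of them, where 5.65% of all genes tested were called higher. DESeq2 also called 4 higher, where it called 950 of the 19598 genes of the table higher. The median difference of the 6 genes was 0.94 on the log2 scale, against 0.11 over all genes tested. The N2 arm of this difference uses the same libraries as the serotonin comparison in N2, so both share its values.

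The largest difference was that of far-4, 2.41 ± 0.55 (SE, adjusted p 0.00876 by edgeR), since its level was lower with serotonin in N2 and higher in ser-7. For far-6 it was 1.17 ± 0.23 (0.00567), for far-7 1.09 ± 0.34 (0.0367) and for far-8 0.77 ± 0.18 (0.00978). The gene far-5 missed the threshold at 0.64 ± 0.22 (0.0553), as did far-3 at 0.78 ± 0.57 (0.384). Within library series 1, 2 and 3 the difference was 1.87, 2.05 and 3.22 for far-4 and 1.36, 1.33 and 0.84 for far-6. It was 1.44, 0.52 and 1.49 for far-7, 0.88, 0.83 and 0.64 for far-8, 0.66, 0.62 and 0.68 for far-5, and 0.49, 0.50 and 1.68 for far-3. Every one of these 18 values was above 0.

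The calls of far-4 and far-6 in this difference held under all 31 alternatives, and that of far-8 under all but one, with N2 DMSO replicates 2 and 3 as the only controls (0.0559). The call of far-7 was lost in 11 of 31. These were a fit with the near-duplicate N2 DMSO libraries added up (0.0568), one with N2 DMSO replicates 2 and 3 only (0.149), and those without N2 serotonin replicate 3 (0.120), N2 DMSO replicate 2 (0.0528), 4 (0.0552) or 5 (0.0681), ser-7 serotonin replicate 1 (0.0516), 2 (0.0637) or 3 (0.0809), or ser-7 DMSO replicate 1 (0.0944) or 3 (0.0812). The gene far-5 passed with the library series block (0.0367) and without N2 serotonin replicate 1 (0.0411), N2 DMSO replicate 6 (0.0289), ser-7 serotonin replicate 2 (0.0489) or ser-7 DMSO replicate 3 (0.0455). Markers of every list had calls in the same difference, where 5.65% of all genes tested were called higher and 9.96% lower. Of 5 pharynx markers 4 were called higher and 0 lower, with a median of 1.10, and the list summed to 163 to 191 CPM in ser-7 with serotonin and 138 to 190.2 CPM in ser-7 with DMSO. Of 9 body wall muscle markers 4 were called higher and 0 lower (median 0.64), and the list summed to 2626 to 3096 CPM in ser-7 with serotonin and 2380.3 to 3904 CPM in ser-7 with DMSO. Of 9 germline and oocyte markers 0 were called higher and 5 lower (median -0.49), and the list summed to 2921 to 3201 CPM in ser-7 with serotonin and 2822 to 3404 CPM in ser-7 with DMSO. Of 8 markers each, intestine and neurons had 1 called higher and 0 lower, and hypodermis had 1 called higher and 1 lower. The part of these markers in the far gene result was not tested.

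**Figure D4:**
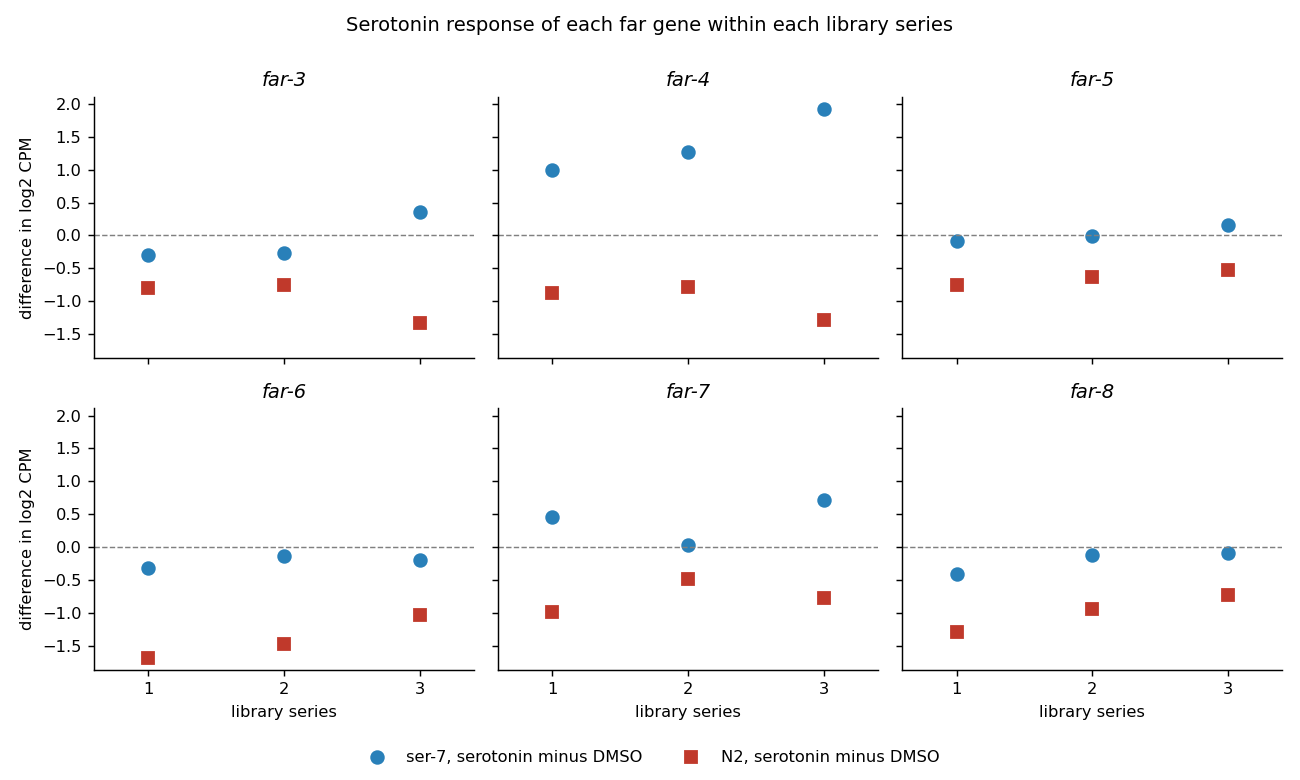
Serotonin minus DMSO in log2 CPM for each far gene within library series 1, 2 and 3, with ser-7 as circles and N2 as squares. In every panel the N2 values are below 0, and the ser-7 value is above the N2 value of the same series. The panels come from the same libraries, so they are not separate observations.

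In the ser-5 mutant no far gene was called with loxapine, by edgeR or DESeq2, and none had an unadjusted p under 0.05. Over all genes tested 0.0487% were called, all of them higher. The ser-5 group with loxapine holds only 2 libraries, which limits what this comparison can detect. The family summed to 724 ± 56.7 CPM (SD, n = 2) with loxapine and 683 ± 33.6 CPM (SD, n = 3) with DMSO.

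The level of far-6 was 366 and 455 CPM in ser-5 with loxapine, between the 365, 407 and 491 CPM of ser-5 with DMSO. Its log2 fold change was -0.04 ± 0.19 (SE, interval -0.44 to 0.37). In N2 it was -0.71 (interval -1.04 to -0.38), so the 2 intervals overlap. The difference between the strains, tested below, was not called. For far-8 the loxapine libraries, at 92.4 and 102 CPM, lay just above the DMSO libraries at 82.7, 89.4 and 91.0 CPM (log2 fold change 0.15 ± 0.15, SE). Likewise for far-4 the loxapine libraries, at 2.81 and 2.71 CPM, lay above the DMSO libraries at 2.13, 1.90 and 0.809 CPM (0.75 ± 0.43). Loxapine libraries lay wholly above DMSO libraries in ser-5 for 8.03% of all genes tested.

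The other members overlapped between the ser-5 groups. The gene far-3 had 203 and 179 CPM with loxapine and 176, 179 and 104 CPM with DMSO. The gene far-5 had 11.7 and 15.0 CPM with loxapine and 11.4, 9.995 and 12.4 CPM with DMSO, and far-7 had 8.60 and 10.8 CPM with loxapine and 7.24, 11.2 and 6.68 CPM with DMSO. Their log2 fold changes were 0.32, 0.25 and 0.21 for far-3, far-5 and far-7.

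The loxapine response in ser-5 minus that in N2 was not called for any far gene, nor for any gene of the table (0%), by edgeR. By edgeR the members with the lowest p were far-6, at 0.67 ± 0.25 (SE, adjusted p 0.478), and far-8, at 0.49 ± 0.19 (0.486). DESeq2 called 19 genes of the table and none of the far genes. Within series 1 and 2, the series with a ser-5 loxapine library, the difference was 1.11 and 0.93 for far-6 and 0.86 and 0.28 for far-8. So the call of far-6 with loxapine in N2 and its absence in ser-5 were not shown to differ after adjustment.

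Without a compound, no far gene was called between a mutant and N2. With DMSO in ser-7 over N2 no far gene was called by edgeR or DESeq2 and none had an unadjusted p under 0.05, where 1.2% of all genes tested were called. The gene far-6 had 502 to 569 CPM in ser-7 and 410.2 to 501 CPM in N2, and these groups nearly touched but did not overlap (log2 fold change 0.25 ± 0.15, SE), as was so in this direction for 6.49% of all genes tested. The other 5 log2 fold changes lay between -0.36 for far-3 and 0.46 for far-4. In ser-5 over N2 with DMSO the 6 log2 fold changes lay between -0.14 for far-3 (interval -0.93 to 0.66) and 0.14 for far-4 (-0.60 to 0.88). None was called by edgeR or DESeq2, none had an unadjusted p under 0.05, and 0.00609% of all genes tested were called.

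Across the 7 groups the order of the mean levels differed between members, while the N2 serotonin group was lowest for each. Most neighbours in these orders overlapped in their libraries. For far-6 the order was ser-7 with DMSO, then ser-7 with serotonin, which it did not overlap, N2 with DMSO, ser-5 with DMSO, ser-5 with loxapine, and then, after a gap with no overlap, N2 with loxapine and N2 with serotonin. For far-8 and for far-5 the neighbours without overlap were N2 with loxapine and, below it, N2 with serotonin. For far-4 the top group, ser-7 with serotonin, stood clear of ser-5 with loxapine, the next. For far-3 and far-7 every neighbouring pair of groups overlapped.

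The members also differed in what else their levels followed. For far-6 and far-8 most of the variation in log2 CPM over the 22 libraries lay between groups, 88.5% and 84.0%, and little between library series, 7.19% and 3.83%. For far-3 the series took more than the groups, 50.5% against 34.4%, each computed on its own. Its libraries of series 3 lay on average 0.55 below their group mean on the log2 scale (mean deviation -0.55), and those of series 2 lay 0.34 above. For far-7 the shares were 53.5% for groups and 34.4% for series, for far-4 76.7% and 16.7%, and for far-5 66.7% and 0.0134%. Series 2 had the highest mean deviation for far-4 (0.42) and far-7 (0.29) too, and series 3 the lowest (-0.41 and -0.22).

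Pairs of members moved together to unequal degrees over the 22 libraries, which share groups, series and scaling, so these correlations are descriptions. Pearson's r of log2 CPM was 0.913 for far-6 and far-8, and 0.665 after each group's mean was removed. For far-4 and far-7 it was 0.791 and 0.682, for far-3 and far-7 0.706 and 0.734, and for far-5 and far-8 0.786 and 0.495. The neighbours far-3 and far-4 had 0.448 over all libraries and 0.658 within groups. The overlapping genes far-3 and far-5 had 0.564 and 0.202. Between far-3 and far-6 r was 0.329 over all libraries and -0.368 within groups.

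**Figure D5:**
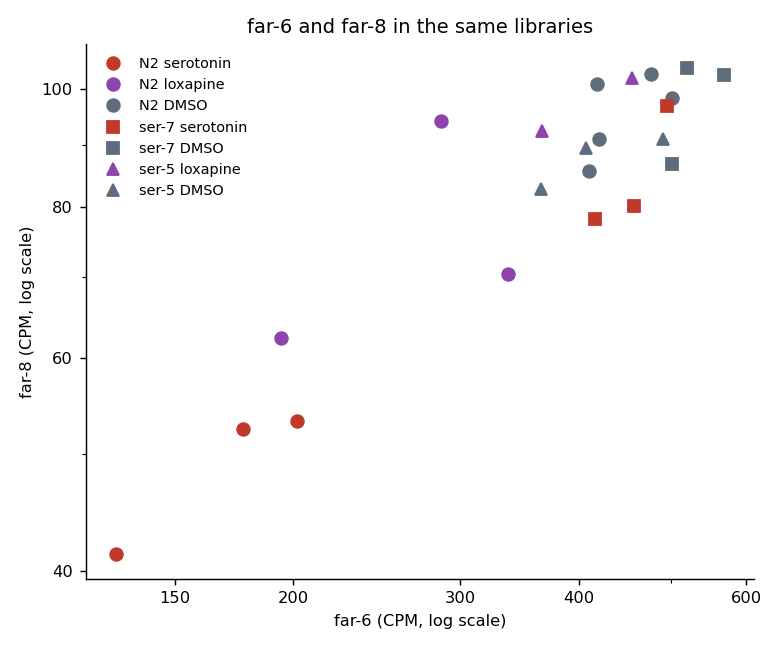
The level of far-8 against that of far-6 in the 22 libraries, both in CPM on log axes, with colour for the treatment and marker shape for the strain. The 3 N2 serotonin libraries lie at the lower left, and the N2 loxapine libraries lie left of N2 with DMSO. The mutant libraries with or without compound lie near N2 with DMSO at the upper right, some of them below its range. They reach down to 365 CPM of far-6 and 78.1 CPM of far-8, against N2 DMSO minima of 410.2 and 85.6 CPM.

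Genes whose pattern over the 22 libraries was most like each member were ranked by Pearson's r of log2 CPM among the 10466 genes whose mean log2 CPM was 2 or more. For far-6 these were ZK105.1 (0.989), swm-1 (0.985), which encodes a secreted protease inhibitor that keeps sperm of males from early activation, and Y53H1B.2 (0.983). For far-8 they were T02B11.3 (0.965), F10G2.1 (0.962) and lbp-2 (0.961), a member of the other main family of fatty acid binding proteins. For far-3 they were sma-10 (0.891), which encodes a membrane protein of the body size BMP pathway, C54C8.12 (0.872) and ptr-8 (0.871), a patched-related gene. The highest values for the remaining members were 0.840 for far-4 with C01B10.3, 0.896 for far-5 with ZC395.5 and 0.885 for far-7 with C39E9.8.

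Other carriers and users of fatty acids were set beside the far genes, as counts of genes past the same edgeR threshold. The lbp genes encode small intracellular lipid binding proteins of a barrel fold. With serotonin in N2 3 of 9 rose and 3 fell, with a median log2 fold change of -0.17. Over all genes tested 20.4% were called higher and 16.8% lower in this comparison, with a median of -0.12. Among these lbp-8, a lysosomal lipid chaperone, was higher by 2.80 and lbp-9 by 0.72 on the log2 scale, while lbp-2 fell by 1.16 and lbp-3 by 1.08. Of 4 sterol and nonspecific lipid transfer genes 3 fell and none rose (median -0.59), among them ncr-1 (-0.95), a homologue of the human Niemann-Pick C1 cholesterol transporter, and heh-1 (-0.65). Of 8 genes listed for yolk and its transport, 5 were measured, and the vitellogenin genes vit-2, vit-5 and vit-6 were not. Of these 5, 4 rose and none fell (median 0.82), among them the vitellogenin gene vit-1 (0.82) and the yolk receptor gene rme-2 (0.93). Of 6 acyl-CoA binding genes 1 rose, acbp-5 (0.52). Of 21 acyl-CoA synthetase genes, which activate fatty acids, 5 rose and 2 fell (median -0.01), among them acs-19 (0.59) and acs-13 (0.53), which rose, and acs-17 (-0.67) and acs-22 (-0.57), which fell. Beside these, germline and oocyte markers were higher and body wall muscle markers lower in the same libraries, with the values given above, and their part was not tested.

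Loxapine in N2 gave calls in the same 5 lists, where 10.5% of all genes tested were called higher and 8.38% lower. Of the lbp genes 1 rose, lbp-8 (2.20), and 1 fell, lbp-3 (-0.46). Both rme-2 (0.55) and vit-1 (0.74) rose among 5 yolk genes, and none fell. Of the 4 transfer genes 2 fell, ncr-1 (-0.73) and heh-1 (-0.45). The acyl-CoA binding gene maa-1 rose (0.47), and of 21 synthetase genes 3 rose, among them acs-19 (0.38) and acs-11 (0.38), and 1 fell, acs-16 (-0.75). In ser-7 with serotonin and in ser-5 with loxapine no gene of these 5 lists was called in either direction. Over all genes tested only 0% and 0.0487% were called there, so this absence is not particular to the lists. In the difference of the serotonin response, ser-7 minus N2, 2 lbp genes were called higher and 2 lower. Over all genes tested 5.65% were called higher and 9.96% lower there. Likewise 1 transfer gene was called higher, 1 yolk gene lower, 1 acyl-CoA binding gene lower and 2 synthetase genes lower.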

How the data were processed

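Per the labels' protocols, whole adults were homogenised in Trizol and sequencing gave single reads of 100 nucleotides with 6 libraries in a lane. The deposited file is 1 table of whole-number read counts with a row per gene and a column per library, not scaled. Not given in the sources used here are the aligner, the counter, its use of strand and the genome build. Groups were taken from genotype and treatment in the labels.

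The counts were filtered (filterByExpr, minimum count 10, minimum total 15), TMM-scaled and tested in edgeR 4.0.16 (R 4.3.3) with its robust quasi-likelihood fit of all 22 libraries, each group having its own mean. Benjamini-Hochberg adjustment ran over the 16431 genes tested, and the threshold was 0.05. A standard error is the log2 fold change divided by the root of F. CPM levels are counts relative to the TMM-scaled total. The code was tested on simulated data.

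The members, lists and tests were chosen with earlier results of these data known. Named are the far genes and, of each other list, at most 2 genes called higher and 2 lower by smallest p. The design counted 8 far genes, of which 6 were in the table.

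Alternatives were DESeq2 1.42.0, RLE size factors, no filter, a fit of the compared groups only, blocks, subsets or sums of the N2 DMSO controls and fits without each library in turn. The replicate block is the batch tag of the labels, which pairs the libraries that share a tag. N2 DMSO replicates 4, 5 and 6 each have a tag that no other library has. The block fits each of them exactly, so its N2 DMSO level rests on replicates 2 and 3. Deviations from the group means correlated at -0.0959 to 0.648 (median 0.230) over the 51 pairs of libraries that share a tag across groups, 38 of them over 0.1. The library series block uses the 3 runs of library numbers. The median was 0.247 for the 68 pairs of libraries in one series and -0.130 for the 137 pairs from different ones.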

Additional observations from a re-analysis of the deposited data

Results flagged for a closer look

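Among the far genes, 4 had a serotonin response that differed between the strains by the interaction test of edgeR. The response in ser-7 minus that in N2 was 2.41 for far-4, 1.17 for far-6, 1.09 for far-7 and 0.77 for far-8 on the log2 scale. Dixon's test was run in N2 with DMSO, the group of 5 libraries, and found no library apart from the others in any of the 6 far genes. The groups of 2 or 3 libraries were not checked by it.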

How the results depend on the processing

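The counts of far genes called were recomputed with 9 other settings and without each of the 22 libraries. Leaving out 1 library gave 3 to 6 genes for serotonin in N2 (5 with all libraries), 1 to 2 for loxapine in N2 (1), 3 to 5 for the serotonin response in ser-7 minus N2 (4) and 0 to 3 for serotonin over loxapine (2), and 0 in the other 5 comparisons. Over all genes these fits called 3897 to 7249, 556 to 4021, 1203 to 4490 and 33 to 1437 in the same order. With N2 DMSO replicates 2 and 3 as the only controls the counts were 3 for serotonin in N2, 0 for loxapine in N2, 2 for the difference in serotonin response and 0 for serotonin over loxapine. Over the 16359 genes of that fit the calls were 3509, 339, 490 and 91 in the same order. The fit used above called 6102, 3101, 2565 and 246 of 16431 genes. With no filter on low counts loxapine in N2 gave 2, where 2818 of 19398 genes were called. The library series block gave 3 for loxapine in N2, 1 for serotonin in ser-7 and 4 for serotonin over loxapine. Of 16431 genes this block called 5275, 10 and 1293 in the same order, against 3101, 0 and 246 in the fit used above. The replicate block, whose N2 DMSO level rests on replicates 2 and 3, also gave 4 for serotonin over loxapine. It made far-3 pass for serotonin in N2 and changed no other call. For serotonin over loxapine and serotonin in N2 it called 896 and 5444 of 16431 genes, against 246 and 6102 in the fit used above. For serotonin over loxapine RLE size factors gave 0, the compared groups only 0, the summed near-duplicate controls 1 and N2 DMSO replicates 4 to 6 only 1. Over all genes these settings called 165 of 16431, 8 of 14866, 111 of 16449 and 106 of 16353, against 246 in the fit used above.

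No called value changed sign in any alternative. Values that changed sign were all uncalled: for loxapine in N2 far-7 at -0.0294 (N2 DMSO replicates 4 to 6), for loxapine in ser-5 far-6 at 0.0529 (replicate block) and 0.0335 (series block), for the difference in loxapine response far-4 at -0.0387 (replicate block) and -0.0365 (series block) and far-7 at -0.13 (replicate block) and -0.0212 (replicates 2 and 3), for ser-7 over N2 far-7 at 0.10 (replicate block) and 0.0401 (replicates 2 and 3), and for ser-5 over N2 far-5 at 0.00298 (compared groups only) and 0.00981 (replicates 4 to 6) and far-7 at 0.18 (replicate block) and 0.13 (replicates 2 and 3). With 1 library left out, sign changes lay in these ranges: far-7 -0.17 to 0.20 for loxapine in N2, far-3 -0.23 to 0.0106 and far-5 -0.15 to 0.13 for serotonin in ser-7, far-6 -0.22 to 0.0930 for loxapine in ser-5, far-4 -0.17 to 0.42 and far-7 -0.0640 to 0.41 for the difference in loxapine response, far-8 -0.0154 to 0.11 for ser-7 over N2, and for ser-5 over N2 far-3 -0.27 to 0.0739, far-4 -0.10 to 0.44, far-5 -0.0848 to 0.0742, far-6 -0.21 to 0.0115 and far-7 -0.30 to 0.10. The causes were not tested. Depth limits far-4, with 12 to 36 counts per library in N2 with serotonin, more than the other members.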
